A study of Homo sapiens with 83 samples.

Results

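The genes described here build the machinery that carries nuclear-encoded proteins into mitochondria, together with the factors that copy, transcribe and stabilise mitochondrial DNA (mtDNA) and its RNA. They were chosen by name: every gene whose symbol begins with TIMM or TOMM followed by a number, pseudogenes left out, plus 13 named genes (SAMM50, TFAM, TFB1M, TFB2M, POLRMT, TWNK, POLG, POLG2, SSBP1, LRPPRC, PNPT1, PMPCA and PMPCB), each with a mean of at least 1 TPM in either cell line. TPM, the deposited unit, corrects read abundance for gene length and sets every library to the same total. Of 38 genes matched by name among 60237 in the table, 37 passed the threshold. The lowest means inside it were those of TIMM23B (10.5 TPM in SHEP and 6.86 TPM in SKNAS), TOMM40L (9.31 and 17.7 TPM) and TFB1M (22.4 and 9.2 TPM), and the gene left outside was TOMM20L (0.0473 and 0.0388 TPM). In the annotation (GRCh38, Gencode 44) 15 of the 37 genes have exons that overlap exons of another coding gene, among them TIMM13 (with TMPRSS9), TFB1M (TIAM2), TIMM9 (KIAA0586), TIMM8B (NKAPD1), TOMM40L (NR1I3), PMPCB (PSMC2 and DNAJC2), POLG (FANCI) and TWNK (MRPL43). Whether the quantification used strand is not given in the sources used here, so reads of such partners cannot be told apart for certain. The 2 genes with the highest estimates in SHEP, TIMM44 (chr19:7926718-7943667, minus strand) and POLG2 (chr17:64477785-64497054, minus strand), have no such overlap.

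Polyadenylated RNA was sequenced from SHEP and SKNAS, both human neuroblastoma cell lines, which constitutively express N-MYC-ER, a fusion of the MYCN protein with the ligand-binding part of the estrogen receptor that stays inactive until 4-hydroxytamoxifen (4OHT) is added. MYC-ON cells received 4OHT and MYC-OFF cells the ethanol vehicle, and all 4 groups carried N-MYC-ER and were later given dexamethasone, which sets cellular clocks to a common phase. Hours after dexamethasone are given as circadian time (CT), and a library was made every 4 h from CT24 to CT76. SHEP had 2 such time series per condition (28 libraries in MYC-OFF, 28 in MYC-ON), and SKNAS had 1 (14 libraries in MYC-OFF, 13 in MYC-ON, where the last was CT72). Cells without N-MYC-ER that received 4OHT were not analysed here, so an effect of 4OHT itself and an effect of N-MYC-ER cannot be told apart.

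Most mitochondrial proteins are made in the cytosol and enter through the TOM complex of the outer membrane. From there, beta-barrel proteins are inserted by the SAM complex, precursors with a presequence pass through the TIM23 complex into the matrix, where a processing peptidase removes the presequence, and carrier proteins are escorted by small TIM chaperones to the TIM22 complex. Mitochondrial DNA is transcribed by its own polymerase, POLRMT, with TFAM and TFB2M, and is copied by polymerase gamma behind the TWNK helicase. MYC proteins bind E-box sequences in DNA and are known to raise many genes of growth and of mitochondrial biogenesis.

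Every library's values summed to 1000000, as TPM must, so the depth of each single library cannot be read from them and no counting error can be given. SHEP libraries had medians of log2(TPM + 1) over expressed genes between 3.93 and 4.17, whereas SKNAS libraries ranged from 2.75 to 4.38, and 3 of the 14 without and 4 of the 13 with 4OHT lay below 3.3. The SKNAS medians moved with the condition (mean 3.92 ± 0.52 in MYC-OFF and 3.52 ± 0.48 in MYC-ON, SD), so SKNAS results are also given without those libraries, after rescaling and with the median as a covariate. Of 7 adrenergic neuroblastoma markers 2 passed the expression filter in SHEP (1 higher and 0 lower in MYC-ON) and 4 in SKNAS (0 higher, 4 lower), and all 7 mesenchymal markers passed in both lines (2 higher and 4 lower in SHEP, 0 higher and 3 lower in SKNAS). Among 6 markers of other cell types, CD68 passed in both lines and the leukocyte gene PTPRC in SKNAS, and both were lower in MYC-ON wherever they were tested (log2 changes of -0.96 in SHEP and -1.43 in SKNAS for CD68, and of -1.94 in SKNAS for PTPRC). Their part in the results below was not tested. Of all genes tested, 33.0% were higher and 38.9% lower in SHEP MYC-ON, and 13.7% and 34.4% in SKNAS MYC-ON.

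The promoters of these genes were read for letters that transcription factors of this pathway are known to bind. Of the 37 genes, 34 had an entry in the RefSeq promoter table (GRCh38.p14), which spans 250 bases before to 50 after each annotated start. The E-box CACGTG, bound by MYC and MAX, stood in the window of 3 of 34 genes (8.82%), against 8.775% of 27305 genes with a window and 12.6% of the 10282 genes that were also tested in SHEP. The core CATGCGC of the NRF1 site stood in 7 of 34 (20.6%), against 5.3% and 9% of those genes. The core CCGGAAG of ETS factors such as GABPA stood in 16 of 34 (47.1%), against 12.2% and 22.9%. Both strands were searched. These shares describe letters in a window and carry no test, and a window without a match says nothing about a factor. The 4 promoters printed here hold NRF1 and ETS cores together or an upstream E-box, and belong to genes whose values are given below. Each is the 250 bases before the start on the gene's own minus strand, 5′ to 3′, with the E-box, NRF1 core and ETS core in capitals on whichever strand they lie. They lie at chr17:64497055-64497304 (POLG2), chr19:633538-633787 (POLRMT), chr6:155314485-155314734 (TFB1M) and chr1:235128838-235129087 (TOMM20).
POLG2: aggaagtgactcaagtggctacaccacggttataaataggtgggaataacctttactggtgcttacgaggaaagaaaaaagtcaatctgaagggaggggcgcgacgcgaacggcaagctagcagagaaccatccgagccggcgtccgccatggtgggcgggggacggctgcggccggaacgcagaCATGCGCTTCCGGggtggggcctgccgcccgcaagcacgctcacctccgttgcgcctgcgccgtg
POLRMT: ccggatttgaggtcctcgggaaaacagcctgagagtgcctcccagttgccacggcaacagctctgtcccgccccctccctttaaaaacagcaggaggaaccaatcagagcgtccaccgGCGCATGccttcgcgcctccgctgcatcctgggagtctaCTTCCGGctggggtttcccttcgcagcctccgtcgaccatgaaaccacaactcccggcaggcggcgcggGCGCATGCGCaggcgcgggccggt
TFB1M: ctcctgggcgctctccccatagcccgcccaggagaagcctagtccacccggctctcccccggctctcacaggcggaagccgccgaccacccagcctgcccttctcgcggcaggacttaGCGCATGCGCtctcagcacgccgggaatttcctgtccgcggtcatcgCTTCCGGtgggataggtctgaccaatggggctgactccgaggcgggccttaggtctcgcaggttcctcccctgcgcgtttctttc
TOMM20: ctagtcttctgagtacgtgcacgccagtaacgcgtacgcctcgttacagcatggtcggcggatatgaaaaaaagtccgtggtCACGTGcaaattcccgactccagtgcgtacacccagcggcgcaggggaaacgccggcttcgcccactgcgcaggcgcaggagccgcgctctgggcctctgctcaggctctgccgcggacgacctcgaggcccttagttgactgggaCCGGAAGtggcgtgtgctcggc
In POLG2 an NRF1 core and an ETS core share their boundary base. In POLRMT and TFB1M the run GCGCATGCGC holds overlapping NRF1 cores, 1 on each strand. TOMM20 has the E-box and an ETS core, and no NRF1 core in this window.

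The main question was how these genes changed when N-MYC-ER was active. In SHEP, 28 of 37 were higher in MYC-ON and 2 were lower, where a call needs an adjusted p of at most 0.05 over all genes tested (limma, Benjamini-Hochberg) and a change of at least 0.15 on the log2(TPM + 1) scale. Of all 14362 genes tested, 33.0% were called higher and 38.9% lower. The median change was 0.42 over the 37 genes and -0.04 over all genes tested. The genes' summed level was 3078 ± 98.9 TPM in MYC-OFF and 4417 ± 403 TPM in MYC-ON (SD, n = 28 each). In bulk RNA, a change in the level per cell cannot be told apart from a change in the make-up of the cells, and TPM are shares of the RNA sequenced, not amounts. In 10 of 37 genes every MYC-ON library lay above every MYC-OFF library, which held for 6.11% of all genes tested. Libraries of different CTs count as replicates here, so p-values measure the spread between libraries of 2 time series.

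At the outer membrane, 6 of 9 TOM genes were called higher in SHEP and 1 lower. TOMM40, the channel of the TOM complex, ranged from 78.3 to 106 TPM in MYC-OFF (median 87.1) and from 104 to 273 TPM in MYC-ON (median 190). The ranges met only at their edge, and the mean rose 2.16-fold (log2 change 1.06 ± 0.06 SE, adjusted p = 7.15e-21, limma). TOMM34, a cytosolic co-chaperone that binds precursors, had 49.1 to 79.8 TPM in MYC-OFF (median 55.9) and 82.3 to 145 TPM in MYC-ON (median 114), with no overlap. Its log2 change was 0.94 ± 0.03. TOMM5, a small subunit that steadies the TOM complex, went from a median of 230 TPM to 379.5 TPM, also without overlap, a log2 change of 0.67 ± 0.04. The receptor TOMM20 and the receptor and organiser TOMM22 each changed by 0.34 on the log2 scale, with overlapping libraries in both genes. TOMM6, another small subunit, stood at the edge of the call with 0.15 ± 0.05, and without series 1 its change was 0.08 (adjusted p = 0.302, limma). The receptor TOMM70 (log2 change -0.03 ± 0.03) and the small subunit TOMM7 (-0.15 ± 0.08) were not called, although TOMM7 was called lower without series 1 (-0.29) and with the library median as a covariate (-0.23), and stood at 0.0017 without series 2. TOMM40L, a less abundant relative of TOMM40, was called lower: its libraries ran from 7.99 to 12.6 TPM in MYC-OFF (median 9.92) and from 4.63 to 10.8 TPM in MYC-ON (median 8.97), largely overlapping, with a log2 change of -0.19 ± 0.05. Without series 2 the change of TOMM40L was -0.13 and not called (adjusted p = 0.062, limma). SAMM50, the core of the SAM complex, rose by 0.29 ± 0.03, from a median of 77.7 to 96.2 TPM.

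At the inner membrane, 5 of 9 genes of the TIM23 and TIM22 translocases were called higher in SHEP and 0 lower. TIMM44, which tethers the import motor to the TIM23 channel, had the highest estimate of the 37 genes, with POLG2 within its error: 38.5 to 47.7 TPM in MYC-OFF (median 43.3) against 89.6 to 121 TPM in MYC-ON (median 103). The groups were far apart, with a 2.45-fold higher mean (log2 change 1.27 ± 0.03, adjusted p = 6.14e-36, limma). TIMM23, which forms the presequence channel, went from 103–119 TPM (median 111) to 137–221 TPM (median 180), again with no overlap, a log2 change of 0.68 ± 0.04. The receptor TIMM50 changed by 0.68 ± 0.04, TIMM21, which links TIM23 to the TOM complex, by 0.64 ± 0.05, and the carrier channel TIMM22 by 0.42 ± 0.04. The remaining 4 genes were not called: TIMM17A (0.12 ± 0.05), its paralog TIMM17B (-0.14 ± 0.07), TIMM29, a TIM22 subunit (-0.07 ± 0.06), and TIMM23B (0.14 ± 0.04), a near-identical copy of TIMM23. Reads that fit both TIMM23 and TIMM23B were divided between them by the authors' quantification, so the split between them is uncertain. TIMM17A passed the call without series 2 (0.19, adjusted p = 0.017, limma) and TIMM17B without series 1 (-0.24, adjusted p = 0.022, limma).

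Of 6 small TIM chaperones of the intermembrane space, 4 were called higher and 1 lower in SHEP. TIMM8A stood apart from the others, with 26.1 to 34.3 TPM in MYC-OFF (median 30.5) and 38.9 to 63.8 TPM in MYC-ON (median 51.4). No libraries overlapped, and the log2 change was 0.75 ± 0.04. TIMM9, TIMM13 and TIMM10B changed by 0.34 ± 0.07, 0.32 ± 0.08 and 0.26 ± 0.05, all with overlapping libraries. These 3 changes were unequal over time, as given below, and TIMM13 was not called without series 1 (0.25, adjusted p = 0.115, limma). TIMM10 (-0.06 ± 0.05) was not called. TIMM8B, the partner of TIMM8A by sequence, was called lower: 61 to 82.3 TPM in MYC-OFF (median 68.5) and 33.4 to 82.6 TPM in MYC-ON (median 65.5), with a log2 change of -0.17 ± 0.06. The 2 groups of TIMM8B libraries overlapped, but all 6 MYC-ON libraries from CT68 to CT76 (33.4 to 52.3 TPM) lay below every MYC-OFF library. Without either series the call of TIMM8B was lost (-0.15 without series 1 and -0.19 without series 2), as it was after rescaling (-0.13).

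Both subunits of the matrix processing peptidase were called higher in SHEP. The regulatory subunit PMPCA rose from 71.8–105 TPM (median 85.5) to 110–172 TPM (median 144), without overlap. The catalytic subunit PMPCB rose less, from a median of 103 to 118 TPM. Their log2 changes were 0.75 ± 0.04 and 0.21 ± 0.02.

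All 10 genes of mtDNA expression were called higher in SHEP: 4 of transcription, 4 of replication and 2 of RNA stability. POLG2, the accessory subunit of polymerase gamma, had 12.8 to 22.1 TPM in MYC-OFF (median 17.7) and 35.4 to 53.8 TPM in MYC-ON (median 42.6). The mean rose 2.46-fold with a wide gap between the groups (log2 change 1.25 ± 0.04, adjusted p = 1.06e-28, limma). Its catalytic partner POLG rose from a median of 27.3 to 44.9 TPM (0.70 ± 0.04). SSBP1, the single-stranded DNA binding protein of mitochondria and the most abundant of the 37 genes in MYC-OFF of SHEP, went from 394–474 TPM (median 437) to 648–973 TPM (median 794), a log2 change of 0.87 ± 0.03. The helicase TWNK changed by 0.43 ± 0.04. Among the transcription genes TFB1M, a methyltransferase of mitochondrial ribosomal RNA, changed most, from 12.3–19.2 TPM (median 14.9) to 18.7–41.1 TPM (median 29.8), or 0.92 ± 0.05. The polymerase POLRMT changed by 0.53 ± 0.04, TFAM, which packages mtDNA and opens its promoters, by 0.50 ± 0.06, and the initiation factor TFB2M by 0.27 ± 0.04. LRPPRC, which protects mitochondrial messenger RNAs, went from a median of 99.6 to 172 TPM without overlap (0.87 ± 0.05), and PNPT1, a ribonuclease, from 22.8 to 38 TPM without overlap (0.75 ± 0.05).

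**Figure D1:**
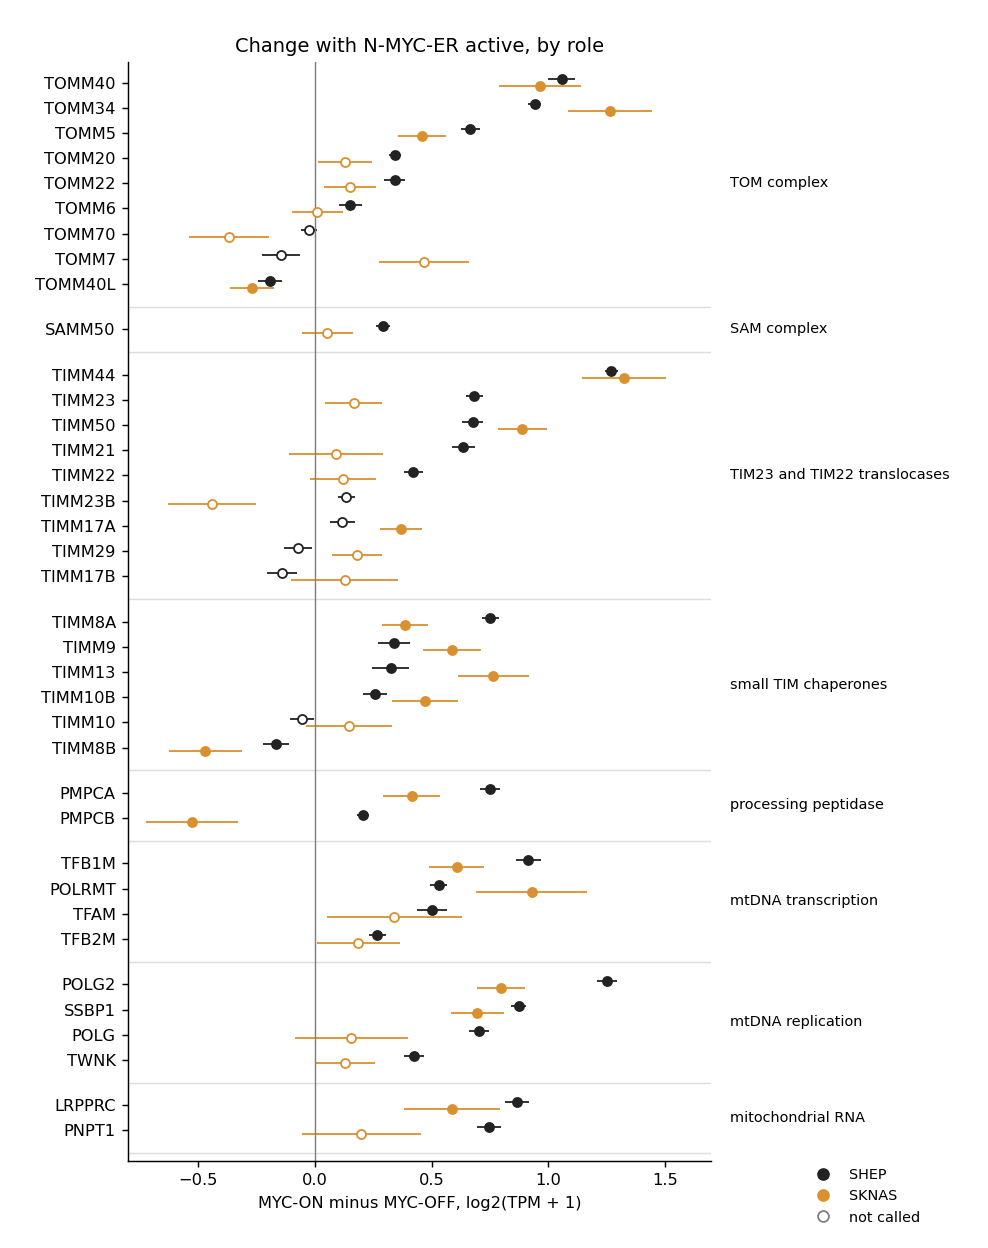
Difference in log2(TPM + 1) between MYC-ON and MYC-OFF (x axis) for each of the 37 genes (y axis, grouped by role), in SHEP (black) and SKNAS (orange), as limma estimates with SE bars, filled where called. TIMM44 (1.27 and 1.33) lies farthest right in both lines, and TOMM40L and TIMM8B lie left of 0 in both, where rescaling moved TOMM40L in SKNAS to 0.06.

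In SKNAS, 16 of 37 genes were called higher in MYC-ON and 3 lower, where 13.7% of all 13886 genes tested were called higher and 34.4% lower. The median change was 0.20 over the 37 genes and -0.29 over all genes tested. That offset of all genes was removed by rescaling each library (median-of-ratios), after which the median over all genes was 0.01, that of the 37 genes 0.54, and 29 of 37 were called higher and 0 lower. With the library median as a covariate the split was 26 higher and 3 lower, and without the 7 libraries of low median it was 15 higher and 1 lower. The summed level of the genes was 3551 to 4408 TPM in MYC-OFF (median 3879) and 4908 to 5354 TPM in MYC-ON (median 5198), with no overlap.

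TIMM44 and TOMM34 had the highest estimates in SKNAS, and these differed by less than their SE. TIMM44 libraries had 11.3 to 64.7 TPM in MYC-OFF (median 52.4) and 80.5 to 148 TPM in MYC-ON (median 131), a 2.43-fold higher mean (log2 change 1.33 ± 0.18, adjusted p = 2.77e-05, limma). In SKNAS, 3 genes had every MYC-ON library above every MYC-OFF library (TIMM44, TIMM50 and POLG2), which held for 2.32% of all genes tested. TIMM50 went from a median of 134 to 249 TPM (0.89 ± 0.11) and POLG2 from 20.3 to 34.8 TPM (0.80 ± 0.10). TOMM34 had 15.6 to 72.9 TPM in MYC-OFF (median 54.6) and 42.5 to 186 TPM in MYC-ON (median 124), a log2 change of 1.26 ± 0.18 with overlap between the groups. The other calls above 0.7 were TOMM40 (0.97 ± 0.17), POLRMT (0.93 ± 0.24) and TIMM13 (0.77 ± 0.15). With the library median as a covariate the change of POLRMT was 0.37 and that of TIMM9 was 0.36 (from 0.59), both still called. After rescaling, LRPPRC, PMPCA, TFB1M, TIMM10B, TIMM17A, TIMM8A, TIMM9 and TOMM5 had changes between 0.72 and 0.93, each over 1.5 times its value on the deposited scale.

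In both lines 15 of the 37 genes were called higher and 2, TOMM40L and TIMM8B, were called lower. Of all genes tested, 33.0% were called higher in SHEP and 13.7% in SKNAS, and 38.9% and 34.4% lower. The share of all genes called alike in both lines was not computed. TOMM40L in SKNAS had 15.7 to 25.9 TPM in MYC-OFF (median 19.1) and 13.4 to 18.7 TPM in MYC-ON (median 15.6), a change of -0.27 ± 0.09, which became 0.06 and was not called after rescaling. TIMM8B changed by -0.47 ± 0.16 in SKNAS, and was not called after rescaling (-0.12) or without the libraries of low median (-0.46). LRPPRC (0.59 ± 0.20) and TIMM10B (0.47 ± 0.14) also lost their calls without those libraries, at 0.33 and 0.31. A further 12 genes were called higher in SHEP and not called in SKNAS, and TIMM17A was called higher in SKNAS (0.37 ± 0.09) and not in SHEP, where it passed after rescaling (0.16), with the library median as a covariate (0.16) and without series 2 (0.19). Neither line gave a call for TIMM10, TIMM17B, TIMM23B, TIMM29, TOMM7 or TOMM70. PMPCB was the only gene called in opposite directions, higher in SHEP and lower in SKNAS (-0.53 ± 0.20, adjusted p = 0.039, limma). Its SKNAS libraries ran from 43.6 to 150 TPM in MYC-OFF (median 137) and from 28.6 to 138 TPM in MYC-ON (median 87.9). They overlapped widely, and the lower call was lost after rescaling (-0.18), with the covariate (-0.08) and without the libraries of low median (-0.42).

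The difference between the lines in the MYC-ON change was tested directly as an interaction. Line, experiment and the level of N-MYC-ER, which the paper reports as higher in SKNAS, cannot be told apart in it. The alternatives that left out a series left out one of SHEP, as SKNAS had 1. The change in SKNAS was called above that in SHEP for 7 of 37 genes and below it for 18, against 13.4% and 38.1% of 14870 genes tested. The median of the interaction was -0.19 over the 37 genes and -0.22 over all genes. After rescaling, the split turned to 12 above and 6 below. Below SHEP in every one of 7 alternatives were 3 genes: PMPCB (SKNAS minus SHEP, -0.73 ± 0.12), TIMM23B (-0.58 ± 0.12) and TIMM23 (-0.52 ± 0.09). POLG2 (-0.46 ± 0.08) and TIMM8A (-0.37 ± 0.07) kept the call in 6 of 7, with rescaling as the exception. No gene was called above SHEP in all 7 alternatives, and TOMM7 (0.61 ± 0.17), TOMM34 (0.32 ± 0.12) and TIMM17A (0.25 ± 0.09) kept the call in 5. The interaction for TIMM44 was 0.06 and for TOMM40 -0.09, neither called, although TIMM44 was called above SHEP after rescaling.

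The SHEP series showed that the change was unequal over time. In MYC-OFF the genes were nearly level: 0 rose with time and 1 fell, TOMM34 (a slope of -0.21 per 24 h on the log2 scale), where 2.54% of all genes rose and 4.65% fell. Without series 1, TOMM34 had a slope of -0.18 and was not called (adjusted p = 0.051, limma). In MYC-ON, 2 of 37 genes rose with time and 19 fell, where 16.6% of all genes rose and 30.5% fell. The 19 that fell were 5 of 6 small TIM genes, 5 of 9 TOM genes, 5 of 9 genes of the inner translocases, SAMM50, 2 of 4 transcription genes and TWNK, and 0 of the processing peptidase and RNA genes fell. The difference of the slopes, MYC-ON minus MYC-OFF, was called higher for 2 and lower for 18, against 14.7% and 24.2% of all genes. The genes' summed level in MYC-ON was 4773 ± 227 TPM at CT24 to CT32 and 3949 ± 218 TPM at CT68 to CT76, while in MYC-OFF it was 3169 ± 150 and 3067 ± 41.1 TPM (SD, n = 6 libraries each). Transcripts of mtDNA made up 8.04% ± 2.48 of the TPM at CT24 to CT32 and 9.62% ± 3.84 at CT68 to CT76 in MYC-ON, and the libraries' median log2 level was 4.09 ± 0.03 and 3.96 ± 0.03. The part of these shifts in the slopes was not tested.

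TIMM13 had the steepest fall. In MYC-ON it stood at 171 to 214 TPM from CT24 to CT32, above all 6 MYC-OFF libraries of those hours (110 to 129 TPM). From CT68 to CT76 the mean was 98 ± 23.6 TPM in MYC-ON and 125 ± 4.07 TPM in MYC-OFF, and the difference went from 0.73 ± 0.12 early to -0.38 ± 0.38 late (log2, SD over 6 pairs of libraries). MYC-ON was higher in 6 of 6 pairs early and in 1 of 6 late. The slope in MYC-ON was -0.56 ± 0.05 per 24 h (adjusted p = 4.53e-14, limma). TOMM40 fell from 234–273 TPM at CT24 to CT32 to a mean of 137 ± 23.6 TPM at CT68 to CT76, while MYC-OFF libraries had means of 98.9 ± 5.15 and 91.8 ± 4.65 TPM. Its difference therefore stayed above 0, at 1.35 ± 0.10 early and 0.56 ± 0.25 late, with a slope of -0.48 ± 0.04 in MYC-ON. TIMM17A had an early difference of 0.37 ± 0.11 and a late difference of -0.31 ± 0.24, and its change over the whole series was not called. TFAM went from 81.5 ± 9.71 TPM to 48.4 ± 9.23 TPM in MYC-ON, at which its late difference was -0.05 ± 0.38. TFB2M, SAMM50 and TWNK also started above MYC-OFF (0.50 ± 0.07, 0.45 ± 0.04 and 0.67 ± 0.13) and had late differences of 0.01 ± 0.11, 0.09 ± 0.08 and 0.20 ± 0.15. TIMM10B and TIMM10 had slopes of -0.35 ± 0.05 and -0.33 ± 0.04 in MYC-ON. TIMM8B had a difference of 0.03 ± 0.21 at the start and of -0.65 ± 0.21 at the end, where all 6 pairs were lower in MYC-ON.

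The 2 genes that rose with time in MYC-ON were TFB1M and TIMM9. TFB1M had 18.7 to 25.4 TPM at CT24 to CT32 and 32.9 to 41.1 TPM at CT68 to CT76 in MYC-ON, and 12.3 to 15.3 and 13.6 to 17.4 TPM in MYC-OFF. Its libraries were higher in MYC-ON in all 6 pairs at both ends, and the slope was 0.39 ± 0.05 per 24 h (adjusted p = 7.83e-10, limma). TIMM9 had 36.6 ± 2.51 TPM early and 60.5 ± 14.8 TPM late in MYC-ON, with a slope of 0.34 ± 0.06. The rise of TIMM9 was larger in series 2 and came to 0.20 in series 1 alone, where the difference from MYC-OFF was not called (0.18, adjusted p = 0.14, limma). POLG2, TIMM44, LRPPRC, SSBP1 and POLG were among the genes that kept most of their difference to the end. So did POLRMT, TIMM50, TOMM34, TOMM20, PMPCA and PMPCB. For POLG2 the difference was 1.16 ± 0.14 early and 1.47 ± 0.14 late, and for TIMM44 1.2 ± 0.12 and 1.3 ± 0.12. The late differences of LRPPRC, SSBP1 and POLG were 0.87 ± 0.25, 0.77 ± 0.12 and 0.67 ± 0.34, higher in 6 of 6 pairs for each. The last MYC-ON library of series 2, CT76, lay above its neighbours for TIMM13 and TOMM40. Without it 2 genes rose and 20 fell in MYC-ON, and the slope of TIMM13 was -0.63.

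**Figure D2:**
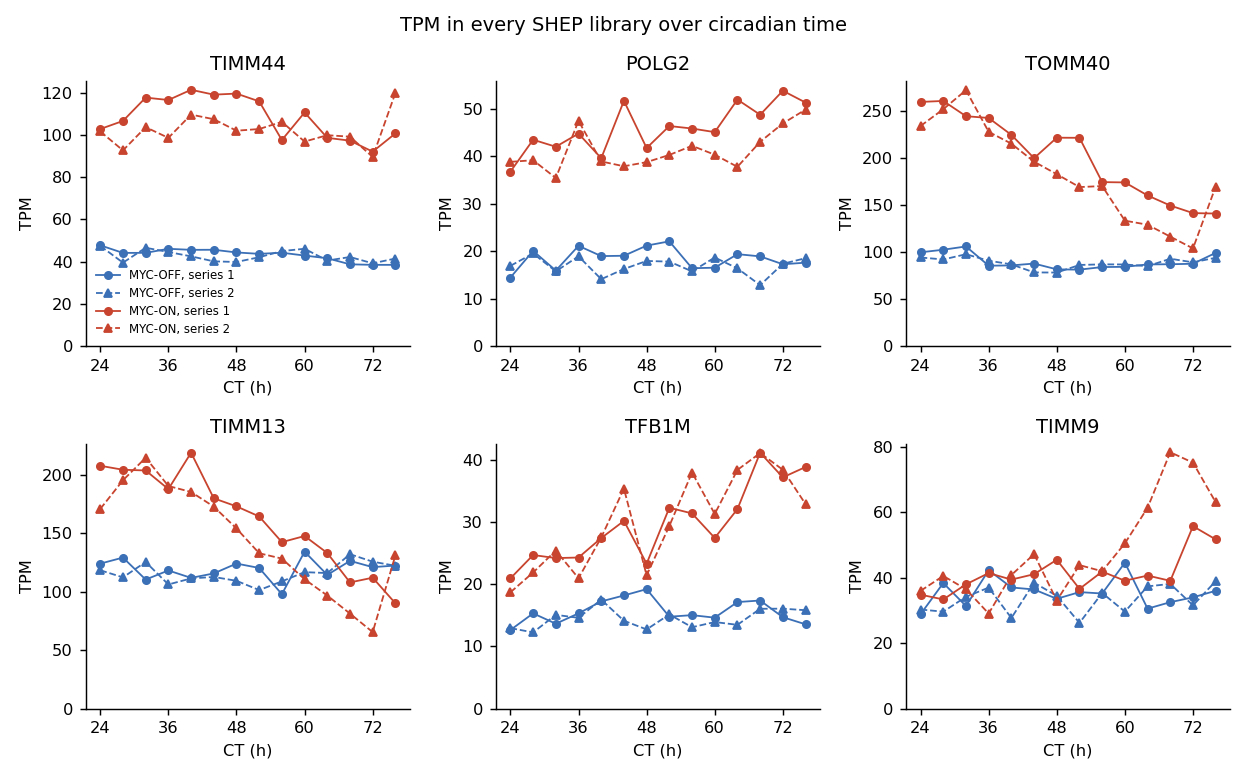
TPM (y axis, from 0) against CT in hours (x axis) in every SHEP library for 6 genes, with MYC-OFF in blue, MYC-ON in red, series 1 as circles with solid lines and series 2 as triangles with dashed lines. TIMM44 and POLG2 stay above MYC-OFF throughout, TOMM40 and TIMM13 decline in MYC-ON (slopes of -0.48 and -0.56 per 24 h), and TFB1M and TIMM9 climb (0.39 and 0.34).

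**Figure D3:**
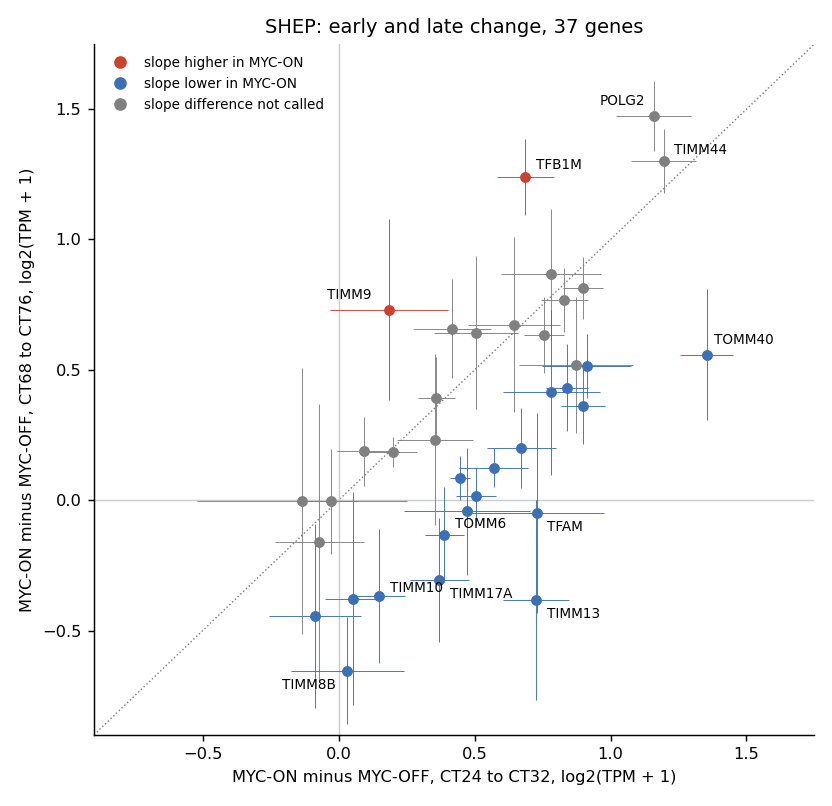
Mean difference in log2(TPM + 1) between MYC-ON and MYC-OFF in SHEP at CT24 to CT32 (x axis) and CT68 to CT76 (y axis) for the 37 genes, with SD over 6 pairs of libraries as bars and the dotted line marking equal values. Points are coloured by the call on the difference of slopes, and the 18 genes with a lower slope in MYC-ON lie below the line, TIMM13 at 0.73 and -0.38.

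No rhythm with a 24 h period was called for any of the 37 genes. The fit here was an undamped cosine of fixed period. The paper used another method, the ECHO algorithm, which allows damped rhythms and a range of periods. It reports many oscillating genes in each line, with a further series for SKNAS. The lack of a call here is therefore not the absence of a rhythm by that method. The lowest adjusted p of a cosine fit (limma, F test) in SHEP was 0.64 without and 0.33 with active N-MYC-ER, where 0.0487% and 0.0418% of all genes were called, and 1 and 3 of the 37 genes had an unadjusted p of at most 0.05, as did 7.28% and 11.9% of all genes. In SKNAS, 0% of all genes were called rhythmic in either condition, with 0 and 1 of the 37 genes at an unadjusted p of at most 0.05, against 0.756% and 0.346% of all genes. No trend over CT was called among the 37 genes in SKNAS either. There 8 genes in MYC-OFF and 3 in MYC-ON had an unadjusted p of at most 0.05, as did 32.7% and 5% of all genes. Of all genes tested, 0% rose and 0.00720% fell in MYC-OFF, and 0.0288% rose and 0.0792% fell in MYC-ON (adjusted call, limma). With so few calls among all genes in SKNAS, the lack of a call there cannot show that the 37 genes had no rhythm or trend.

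With N-MYC-ER inactive, the lines differed in most of these genes, as they did in most genes tested. Line and experiment cannot be told apart in this comparison. In MYC-OFF, 20 of 37 were called higher in SKNAS and 9 lower, against 32.1% and 46.4% of 14926 genes tested. TIMM10 differed most, with 71.7 to 95.9 TPM in SHEP (median 82.3) and 141 to 581 TPM in SKNAS (median 197), a log2 difference of 1.36 ± 0.11. All SKNAS libraries lay above all SHEP libraries for TIMM10. POLRMT (0.96 ± 0.12), TIMM17B (0.95 ± 0.15), TOMM40L (0.89 ± 0.06) and TIMM17A (0.83 ± 0.05) were also higher in SKNAS. TOMM40L libraries did not overlap either, with a highest value of 12.6 TPM in SHEP and a lowest of 15.7 TPM in SKNAS. The same held between the lines for POLRMT, TIMM17A, TOMM20, TOMM5, TOMM6 and SAMM50. How often it held over all genes was not tested. TFB1M was lower in SKNAS, with 4.52 to 8.75 TPM (median 6.88) against 12.3 to 19.2 TPM in SHEP, a difference of -1.01 ± 0.06 without overlap. TFAM (-0.91 ± 0.17), TIMM10B (-0.74 ± 0.06) and SAMM50 (-0.63 ± 0.05) were lower as well, and TFAM differed by -0.46 without the SKNAS libraries of low median. TIMM23B (-0.39) and TOMM34 (-0.38) were not called without those libraries (-0.10 for both genes). Levels per length also ordered the genes within a line: in SHEP MYC-OFF, SSBP1 (435 ± 20.7 TPM), TOMM6 (328 ± 22.4), TOMM7 (288 ± 43.5) and TOMM5 (234 ± 11.6) were the most abundant, and the ranges of TOMM6 and TOMM7 overlapped.

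**Figure D4:**
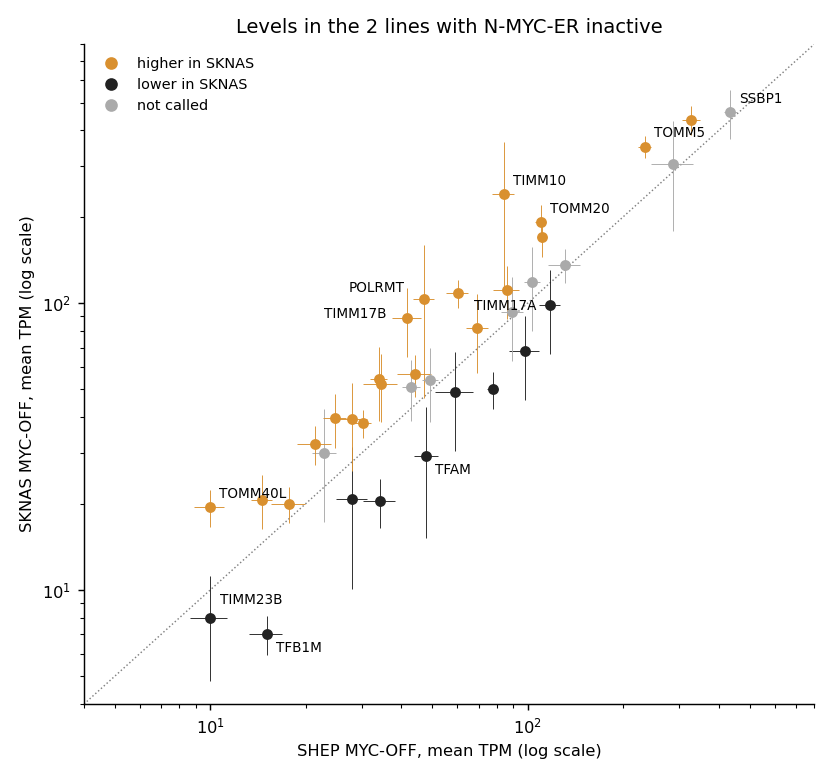
Mean TPM of the 37 genes in MYC-OFF of SHEP (x axis, n = 28) and SKNAS (y axis, n = 14), both on log scales, with SD bars and a dotted line of equal levels. Orange points were called higher and black points lower in SKNAS, and TIMM10 (239 TPM in SKNAS and 84 TPM in SHEP) and TFB1M (7.02 and 15.1 TPM) lie far from the line.

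In all, 8 pairs of related or partner genes were compared as ratios within a library, a measure that does not depend on how a library is scaled apart from the pseudocount. The change of each log2 ratio between MYC-ON and MYC-OFF was tested over pairs of libraries of the same CT with a two-sided permutation test, exact in SKNAS (13 pairs) and with 100000 resamples in SHEP (28 pairs), with adjustment over all 16 tests. In SHEP the ratio changed in all 8 pairs, and in SKNAS in 5. Ratios of other gene pairs were not tested, so whether such changes are particular to these pairs is not known. Of all single genes, 78.6% in SHEP and 55.6% in SKNAS had an unadjusted p of at most 0.05 for the MYC-ON change (limma). TOMM40 against TOMM40L moved most, by 1.25 ± 0.24 in SHEP (SD, higher in 28 of 28 pairs, adjusted p = 4.57e-05, permutation test) and by 1.24 ± 0.65 in SKNAS (13 of 13, adjusted p = 0.000488, exact). The SHEP value of p is the smallest these resamples can give. Libraries of different CTs count as replicates in this test too. Its p-values thus measure the spread between libraries of 2 time series in SHEP and of 1 in SKNAS. In SHEP, libraries were also paired by series number, and the labels do not say whether that number marks a shared batch. TIMM8A against TIMM8B moved by 0.92 ± 0.24 in SHEP and 0.85 ± 0.60 in SKNAS, and PMPCA against PMPCB by 0.54 ± 0.22 and 0.94 ± 0.66. In MYC-OFF the 2 peptidase subunits stood at a log2 ratio of -0.27 in SHEP, and in MYC-ON at 0.28. The ratio of TIMM23 to TIMM23B rose by 0.55 ± 0.24 in SHEP and 0.61 ± 0.62 in SKNAS, within the limit on how their reads were split. POLG fell against POLG2 by 0.55 ± 0.28 in SHEP and by 0.64 ± 0.84 in SKNAS on the log2 scale. Called in SHEP and not in SKNAS were TIMM17A against TIMM17B (0.26 ± 0.37 and 0.24 ± 0.99), TIMM10 against TIMM10B (-0.32 ± 0.22 and -0.33 ± 0.94) and TFB1M against TFB2M (0.65 ± 0.46 and 0.42 ± 0.71), and whether the lines differ in them was not tested.

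**Figure D5:**
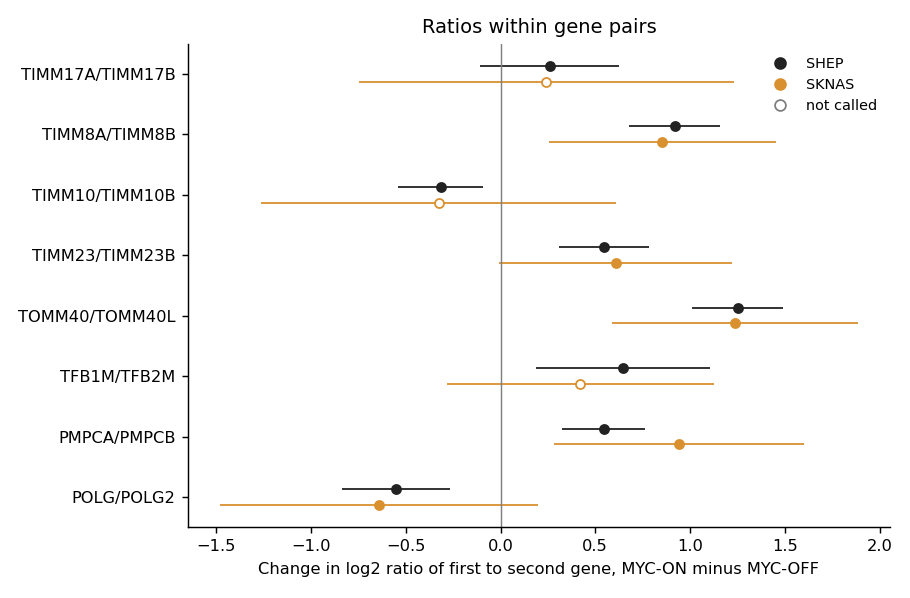
Change in the log2 ratio of the first to the second gene of each pair between MYC-ON and MYC-OFF (x axis) for 8 pairs (y axis), in SHEP (black, 28 pairs of libraries) and SKNAS (orange, 13 pairs), with SD bars and filled points where called. TOMM40 against TOMM40L lies farthest right in both lines (1.25 and 1.24), and the POLG to POLG2 and TIMM10 to TIMM10B ratios lie left of 0.

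Other genes of the same pathways were taken from lists. Their counts, here and for the mtDNA and regulator genes below, stand beside the shares of all genes tested. In SHEP 33.0% of all genes were called higher and 38.9% lower, and in SKNAS 13.7% and 34.4%. Of 7 tested genes of the import motor and its partners, 5 were higher and 2 lower in SHEP MYC-ON, and 4 higher and 0 lower in SKNAS. The largest change was that of GRPEL1, the nucleotide exchange factor of the motor (1.34 in SHEP and 1.28 in SKNAS), and HSPA9, the motor's Hsp70, changed by 0.85 and 0.47, the latter not called. Both genes of the matrix chaperonin were higher in both lines, HSPD1 by 1.04 and 0.98 and HSPE1 by 0.73 and 1.11. CHCHD4, the oxidoreductase that folds small TIM proteins, changed by 0.78 and 0.71, both called. Of 12 other mitochondrial peptidases 10 were higher and 1 lower in SHEP, and 6 higher and 2 lower in SKNAS, led in SHEP by MIPEP, which trims presequences further (1.5 in SHEP and 1.59 in SKNAS). Of 18 further factors of mitochondrial RNA 14 were higher and 1 lower in SHEP, and 8 higher and 0 lower in SKNAS, with SLIRP, the partner of LRPPRC, at 1.25 and 0.79. Of 3 genes of oxidative folding, CHCHD4 included, 2 were higher and 0 lower in each line. Of 6 outer membrane assembly partners 5 were higher and 1 lower in SHEP, and 2 higher and 0 lower in SKNAS, and of 3 inner membrane insertion factors 2 were higher and 1 lower in SHEP, with 0 called in SKNAS. Among 13 further factors of mtDNA transcription and replication 7 were higher and 1 lower in SHEP, and 3 higher and 2 lower in SKNAS.

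The messenger RNAs that mtDNA itself encodes moved in no common direction. Of 13, 2 were called higher and 3 lower in SHEP (median change -0.01), and 0 higher and 3 lower in SKNAS (median -0.44, against -0.29 for all genes tested). In SHEP MT-ND1, MT-CYB and MT-CO3 fell by 0.42 ± 0.14, 0.40 ± 0.11 and 0.38 ± 0.11 on the log2 scale (SE). MT-ND4 and MT-ND2, named after their values were seen, rose by 0.31 ± 0.14 and 0.24 ± 0.10. Both were near the threshold (adjusted p = 0.047 and 0.037, limma). The fit had no series term, and a fit of these genes without either series is not given. Of the 2 ribosomal RNAs of mtDNA, 1 was higher and 0 lower in each line. The RNA was selected by poly(A) tails, which mitochondrial transcripts carry in short form. Of 8 tested nuclear regulators of mitochondrial genes, 4 were higher and 1 lower in SHEP, and 3 higher and 1 lower in SKNAS. The coactivators PPARGC1B (0.66 in SHEP and 0.57 in SKNAS) and PPRC1 (0.43 and 0.73) were called higher in both lines, while NRF1 changed by 0.16 in SHEP, called, and -0.03 in SKNAS, and GABPA by 0.08 in SHEP, not called, and -0.61 in SKNAS, called.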

How the data were processed

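Poly(A) RNA-seq of 83 libraries was analysed from the deposited TPM values of 60237 genes. Per the labels and the study's methods, the authors quantified reads with Salmon 1.3.0 against Gencode 35 (GRCh38), collapsed the estimates to gene level (Tximport 1.12.3), and took symbols from Ensembl 101. The authors tested counts, which are not analysed here, so the values were tested as log2(TPM + 1) with limma 3.58.1 (R 4.3.3). Genes with a mean of at least 1 TPM in the libraries fitted were tested, and calls required an adjusted p (Benjamini-Hochberg) no higher than 0.05 together with a change of 0.15 or more in log2. The MYC effect was fitted with CT as a factor, trends as slopes per 24 h, and rhythm as a cosine with a 24 h period. The effects of 4OHT treatment were taken from the labelled groups, since the level of the N-MYC-ER transgene does not check the treatment. Ratios were tested by permutation (scipy 1.17.1). The scripts were tested on simulated data. The genes and lists were chosen with earlier results of these data known. All 37 genes could be named, with up to 3 per other list and a few set regulators. Alternatives were another pseudocount, no filter, median-of-ratios rescaling, the library median as covariate, other variance settings and left-out series or libraries. One of these, leaving out the SHEP MYC-ON CT76 library of series 2, was chosen after seeing the data. Nothing in the labels says that libraries came from separate cultures beyond their series, so p-values measure the spread between these libraries.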

Additional observations from a re-analysis of the deposited data

Results flagged for a closer look

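On the deposited scale, the change from MYC-OFF to MYC-ON was called different between the lines for 25 of the 37 genes. The call is from the limma interaction test (adjusted p of at most 0.05 over all genes tested), given as SKNAS minus SHEP on the log2(TPM + 1) scale. Lower in SKNAS at the inner membrane were TIMM23B (-0.5762), TIMM21 (-0.5454), TIMM23 (-0.5179) and TIMM22 (-0.3012). Among outer membrane genes these were TOMM70 (-0.3403), SAMM50 (-0.2384), TOMM20 (-0.2151) and TOMM5 (-0.2064), and among small TIM genes TIMM8A (-0.3661) and TIMM8B (-0.301). The peptidase subunits PMPCB (-0.7315) and PMPCA (-0.3348) were lower too, as were POLG (-0.5477), PNPT1 (-0.5464), POLG2 (-0.4566), TFB1M (-0.3084), TWNK (-0.2968) and SSBP1 (-0.178). Higher in SKNAS were TOMM7 (0.6136), TIMM13 (0.4408), POLRMT (0.3986), TOMM34 (0.323), TIMM29 (0.2527), TIMM17A (0.2523) and TIMM50 (0.2134). Over all genes tested the median difference was -0.22, and 13.4% were called higher and 38.1% lower, so calls were common among all genes too. After rescaling, only 6 of the 18 lower calls held (PMPCB, TIMM23B, POLG, PNPT1, TIMM21 and TIMM23), while all 7 higher calls did. The differences of SAMM50, TOMM20, TOMM5 and SSBP1 then changed sign. With the library median as a covariate, 9 of the 18 lower calls and 1 of the 7 higher calls held. The difference was called in all 7 alternatives for PMPCB, TIMM23B and TIMM23. Line, experiment and the level of N-MYC-ER cannot be told apart in any of these differences. The part of the uneven SKNAS library medians in the other differences was not tested beyond those alternatives.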

How the results depend on the processing

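In SHEP, 28 genes were higher and 2 lower with the series number as a replicate block, as without it, and series 1 minus series 2 correlated between the conditions at r = 0.49 over 14362 genes, with only 2 series. Slopes without the block gave the same counts (0 and 1 in MYC-OFF, 2 and 19 in MYC-ON). The count of lower genes in SHEP was 1 after rescaling, 0 with series means as replicates and 0 to 3 when a series was left out. With series means as replicates 26 genes were higher. The lowest adjusted p of the 37 genes was then 0.000446, against 6.14e-36 with libraries as replicates (limma). Slopes called lower in MYC-OFF numbered 0 to 2 when a series was left out, and slopes called higher in MYC-ON numbered 4 after rescaling and 3 to 4 when a series was left out. In SKNAS, 29 genes were higher and 0 lower after rescaling, 26 were higher with the library median as covariate, and 1 was lower without the libraries of low median. The interaction was called higher for 4 genes with no filter, 12 after rescaling, 3 with the covariate and 1 to 2 when a series was left out, and lower for 6, 9 and 7 to 8 after rescaling, with the covariate and without a series. The interaction was above 0 for 12 genes, and for 22 after rescaling. Among genes called under either setting, rescaling turned the sign for TOMM40L in SKNAS (0.0629), for the interactions of SAMM50 (0.0355), SSBP1 (0.10), TFB2M (0.19), TOMM20 (0.0624) and TOMM5 (0.0718), and for TOMM40 between lines in MYC-OFF (0.16). With the covariate it turned for TIMM10 in SKNAS (-0.29), for the interactions of POLRMT (-0.0764), TFAM (0.46) and TFB2M (0.23), and between lines for TIMM8B (-0.0242) and TOMM40 (0.22). Without the libraries of low median TOMM40 was at 0.20. The SKNAS ratio of TIMM17A to TIMM17B passed without those libraries (0.51), and that of TFB1M to TFB2M with a pseudocount of 0.1 (0.48). The cause of these changes was not tested. The depth of each library is not in the deposited values, so its part in the spread was not tested.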
